A study of Homo sapiens with 12 samples.

Results

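The pregnancy-specific glycoprotein (PSG) genes were examined across 12 RNA sequencing libraries of G401, an established human malignant rhabdoid tumour cell line that carries no functional SMARCB1. The 10 protein-coding members, PSG1 to PSG9 and PSG11, were selected by gene symbol from 57820 gene identifiers, and all 10 passed the count filter that left 15750 genes for testing. The family had been singled out because its counts were lower with dBRD9-A in earlier results of these libraries, so the values with and without dBRD9-A, and their difference between cell states, are given as description. Where calls past a threshold are counted for them, the share of all genes stands beside the count and nothing is read from it. Effects of SMARCB1 on the members were tested, although those comparisons use the same libraries.

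All groups were G401 cells of the genotype SMARCB1(-/-) under doxycycline induction. Either GFP, the control protein, or SMARCB1, a core SWI/SNF chromatin remodelling subunit, was induced, and cells received DMSO, the solvent, or dBRD9-A for 24 hours. dBRD9-A is a degrader compound directed at BRD9, a bromodomain protein of the non-canonical BAF complex, which is assembled without SMARCB1. Each of the 4 groups had 3 replicates. The labels do not say whether replicates came from separate cultures, so p-values measure the spread between these samples, which may be technical. The duration of induction, the dBRD9-A dose and whether the cells were a single clone are not given in the sources used here.

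PSG proteins are secreted members of the carcinoembryonic antigen branch of the immunoglobulin superfamily. In pregnancy they are made by the syncytiotrophoblast, the fused outer cell layer of the placenta, and reach high levels in maternal blood. They lack a membrane anchor and act as ligands: several bind integrins or heparan sulphate and activate latent TGF-beta. The genes lie side by side on chromosome 19 among CEACAM genes and pseudogenes, and arose by duplication.

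In the RefSeq gene table (GRCh38.p14) the members follow each other in the order PSG3, PSG8, PSG1, PSG6, PSG7, PSG11, PSG2, PSG5, PSG4 and PSG9. RefSeq promoter entries matched 3 of the 10, PSG3, PSG4 and PSG5. The 200 bases before the annotated start of all 3 are printed 5′ to 3′. Whether promoter sequence bears on the values of the members was not tested. Capitals mark a match to CCCCGCCC or CCCCACCC, the GC box and CACCC box forms to which factors of the SP and KLF families are known to bind. Each gene is on the minus strand of GRCh38.p14, PSG3 at chr19:42740482-42740681, PSG4 at chr19:43205639-43205838 and PSG5 at chr19:43186537-43186736.
PSG3: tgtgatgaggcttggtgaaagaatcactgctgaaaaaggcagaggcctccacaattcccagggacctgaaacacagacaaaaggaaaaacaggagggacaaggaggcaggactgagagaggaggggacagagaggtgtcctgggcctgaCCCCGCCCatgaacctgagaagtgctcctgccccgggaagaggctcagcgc
PSG4: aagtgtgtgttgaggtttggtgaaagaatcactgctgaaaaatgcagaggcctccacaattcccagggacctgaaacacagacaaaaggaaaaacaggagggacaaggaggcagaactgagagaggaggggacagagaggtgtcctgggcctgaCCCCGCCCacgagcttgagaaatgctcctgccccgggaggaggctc
PSG5: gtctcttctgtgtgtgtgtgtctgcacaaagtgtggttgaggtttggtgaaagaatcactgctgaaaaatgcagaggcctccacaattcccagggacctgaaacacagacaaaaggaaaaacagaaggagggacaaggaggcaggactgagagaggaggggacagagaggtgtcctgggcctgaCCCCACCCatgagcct

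The PSG3 and PSG4 windows matched at 186 of 195 aligned bases (95.4%), the PSG3 and PSG5 windows at 160 of 165 (97%) and the PSG4 and PSG5 windows at 165 of 169 (97.6%). CCCCGCCC, searched on both strands, was found in PSG3 and PSG4 and in 20.2% of the 35116 RefSeq promoters over the same 200 bases. CCCCACCC was found in PSG5 and in 8.99% of promoters. TATAAA was found in none of the 3 and in 8.59% of promoters. The motif began 51 bases before the annotated start in PSG3, 46 bases before it in PSG4 and 16 bases before it in PSG5, and these distances depend on the annotated start sites.

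Libraries held 34.97 to 58.54 megacounts (1 megacount is 1000000 counts) assigned to genes. A count of 3, taken as the floor of detection, equalled 0.0516 to 0.0847 counts per megacount (CPM). As the labels state, the 6 GFP libraries held 0 to 2 SMARCB1 counts each, against 53033 to 110893 where SMARCB1 was induced. BRD9 mRNA was at 38.3 to 47.4 CPM as group means, and the degraded protein was not measured. Of 27 placental hormone and trophoblast marker genes, 21 had at most 3 counts in every library, and CGA, CYP19A1, HSD3B1 and ERVW-1 were at 0 counts in all 12. The other 6 of the 27 passed the filter: SDC1 had 1601 to 3433 counts per library and EBI3 76 to 394, and CGB7, PLAC1, KISS1 and PAPPA had at most 44. In bulk RNA, fewer cells with a transcript and less of it per cell cannot be told apart.

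PSG9, PSG4 and PSG5, the last members in chromosomal order, supplied most of the PSG transcripts. Per kilobase of exon (GENCODE 29 exon lengths, a release that may differ from the authors' annotation), PSG9 had the highest level in GFP cells in DMSO, 21.5 ± 0.527 CPM per kilobase (SD, n = 3). PSG4 followed at 11.5 ± 0.58 and PSG5 at 11.4 ± 0.235 CPM per kilobase (SD, n = 3), which did not differ beyond their spread. PSG1 was at 3.68 ± 0.322 CPM per kilobase, PSG2, PSG8, PSG3, PSG7 and PSG11 were between 2.69 and 1.42, and PSG6 was lowest at 0.2 ± 0.0412 (SD, n = 3). In this group PSG9, PSG4 and PSG5 together made up 79.8% ± 0.554 of the summed CPM of the 10 genes (SD, n = 3).

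PSG9 is among the members for which activation of latent TGF-beta1 has been described. In GFP cells in DMSO its 3 libraries had 108, 106 and 111 CPM, and with dBRD9-A they had 22.8, 22.4 and 23.5 CPM. SMARCB1 cells had 35.4, 33.2 and 31.8 CPM in DMSO and 22.2, 21 and 19.5 CPM with dBRD9-A. The GFP DMSO libraries stood far above all others, and the levels with dBRD9-A were much nearer to each other, though SMARCB1 and GFP libraries did not overlap.

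PSG4 kept most of its level in every condition. Its libraries had 70.4, 69.9 and 76.4 CPM in GFP cells in DMSO against 46.5, 47 and 43.3 CPM once dBRD9-A was added. In SMARCB1 cells they had 58.5, 56.7 and 55 CPM in DMSO and 53.8, 51.7 and 49.4 CPM with dBRD9-A. The 4 groups did not overlap, yet the lowest group mean was 63.2% of the highest.

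PSG5 had 53.7, 51.9 and 53.9 CPM in GFP cells in DMSO, and 10.3, 10.4 and 10.8 CPM with dBRD9-A. SMARCB1 cells had 31, 28.8 and 34.3 CPM in DMSO, and 13.1, 11.1 and 11 CPM with dBRD9-A. The order of the groups was that of PSG4. The steps from GFP to SMARCB1 cells in DMSO and on to dBRD9-A were wider than those of PSG4, and the last step, between the dBRD9-A groups, was not.

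PSG1, the best studied member and a ligand of integrins and of heparan sulphate, had a different order of groups. It was highest in SMARCB1 cells in DMSO, with 28.2, 25.6 and 26.9 CPM, against 16.9, 17.9 and 20 CPM in GFP cells in DMSO. With dBRD9-A it had 10, 10.7 and 9.7 CPM in SMARCB1 cells and 1.8, 2.05 and 2.09 CPM in GFP cells. No group overlapped another, and the GFP cells with dBRD9-A were lowest.

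PSG2 shared part of this order. Its GFP DMSO libraries had 7.15, 7.34 and 8.05 CPM and its SMARCB1 DMSO libraries 7.98, 7 and 7.81 CPM, which overlapped. With dBRD9-A it had 1.33, 0.606 and 0.706 CPM in GFP cells, 23 to 57 counts per library, and 3.16, 2.71 and 2.4 CPM in SMARCB1 cells.

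PSG3, PSG8, PSG7 and PSG11 were highest in GFP cells in DMSO, followed by SMARCB1 cells in DMSO, SMARCB1 cells with dBRD9-A and GFP cells with dBRD9-A, with no overlap between neighbours in that order. In DMSO, PSG3 had 7.4, 7.42 and 7.45 CPM in GFP cells against 3.38, 3.02 and 3.37 CPM in SMARCB1 cells. With dBRD9-A, PSG3 had 1.19, 1.4 and 1.33 CPM in GFP cells against 2.24, 1.7 and 2.26 CPM in SMARCB1 cells. PSG11, for which induction of cytokines in monocytes has been described, had group means of 7.15 ± 0.222, 6.4 ± 0.263, 2.42 ± 0.12 and 1.33 ± 0.122 CPM in the order just given (SD, n = 3). PSG8 ranged from 9.03 ± 0.324 to 1.63 ± 0.421 CPM and PSG7 from 8.85 ± 0.614 to 1.7 ± 0.162 CPM as group means (SD, n = 3). PSG6 had the fewest counts of the members, with 47 to 58 counts per library in GFP cells in DMSO and 5 to 11 with dBRD9-A. In SMARCB1 cells its DMSO libraries held 14 to 32 counts and its dBRD9-A libraries 8 to 17, and all neighbouring groups overlapped.

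**Figure D1:**
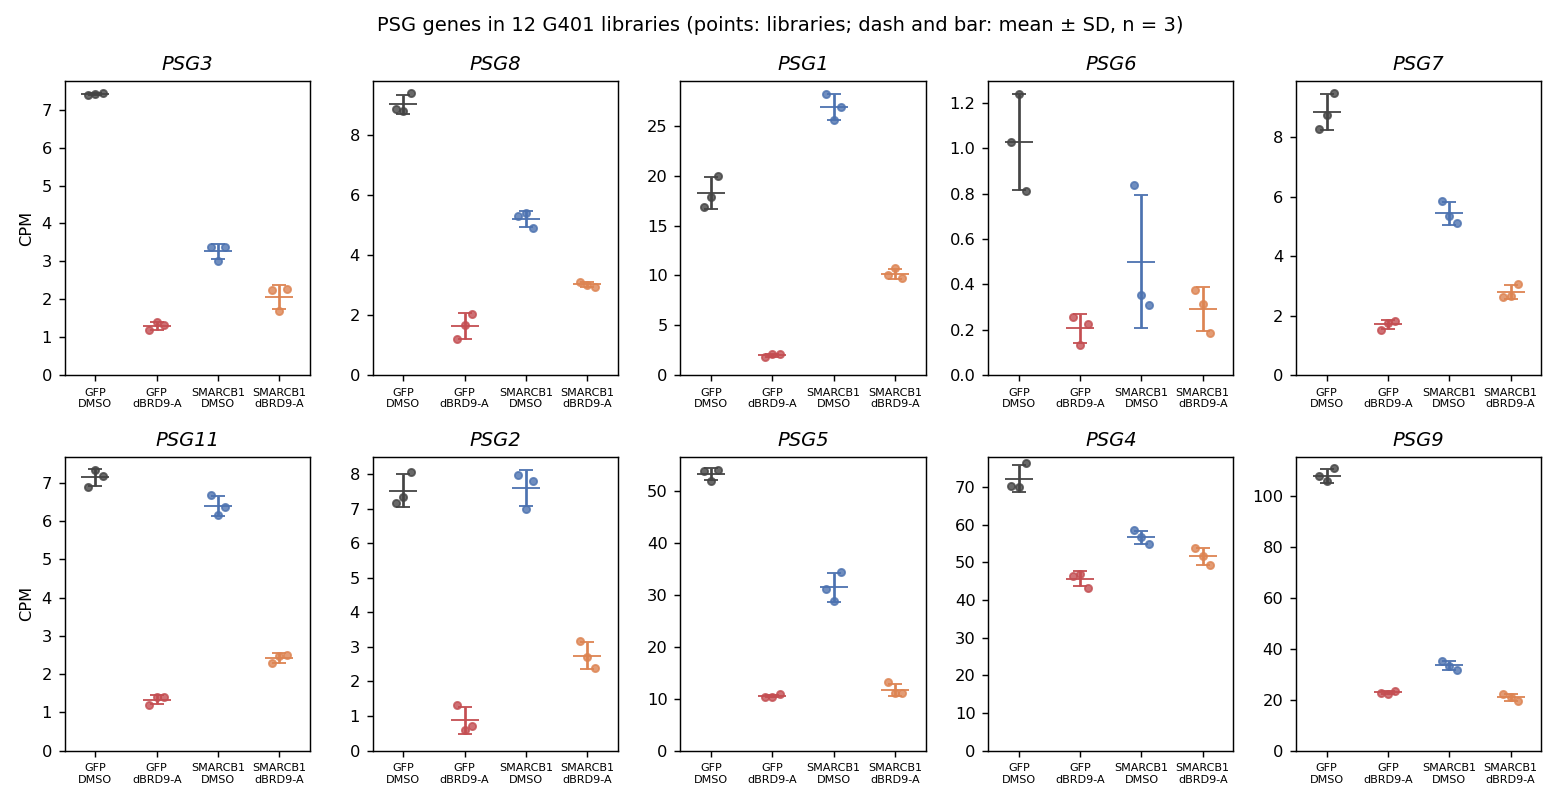
Counts per megacount (CPM, linear axes from 0) of the 10 PSG genes in the 4 groups, in chromosomal order from PSG3 to PSG9. Points are libraries, and dashes with bars are the mean and SD of 3 replicates. PSG1 is the member highest in SMARCB1 DMSO libraries without overlap, and PSG4 keeps 63.2% of its GFP DMSO level with dBRD9-A in GFP cells.

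With dBRD9-A in GFP cells, 9 members had levels between 10.8% (PSG1) and 21.1% (PSG9) of those in DMSO, and PSG4 had 63.2%. As log2 fold changes from edgeR, the 9 values lay between -3.21 (SE 0.09, PSG1) and -2.25 (SE 0.05, PSG9), and that of PSG4 was -0.66 (SE 0.04). All 10 members were lower at an adjusted p under 0.05, where 8.47% of the 15750 genes tested were lower, 7.43% higher and 15.9% either. Replicates did not overlap for all 10, against 17.2% of genes lower and 16.7% higher. Since this comparison chose the members, nothing is read from that count. The summed CPM of the 9 members other than PSG4 was 221 ± 5.83 in DMSO and 42.4 ± 1.32 with dBRD9-A (SD, n = 3), or 19.2% of the DMSO level. With PSG4 included the sum was 293 ± 9.45 and 88 ± 0.772 CPM (SD, n = 3), or 30%. PSG4 was left out of the first sum after its values were seen.

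In SMARCB1 cells the members with dBRD9-A stood between 36.2% (PSG2) and 91% (PSG4) of their DMSO levels. PSG2, PSG5, PSG1 and PSG11 were at 36.2%, 37.4%, 37.6% and 37.9%. PSG7, PSG8, PSG6, PSG9 and PSG3 were at 51.1% to 63.3%. In this comparison 8 of 10 were lower at an adjusted p under 0.05, where 1.25% of genes tested were lower, 0.679% higher and 1.93% either, and PSG4 and PSG6 were the others. Replicates did not overlap for 9 members, all lower, against 8.5% of genes lower and 8.43% higher. For 9 of 10 members the fold change lay nearer to 0 in SMARCB1 cells at an adjusted p under 0.05 of the interaction, where 2.15% of genes had a positive difference, 1.65% a negative one and 3.8% either. Nothing is read from these counts. The sum of all 10 was 60.9% of its DMSO level, and without PSG4 46.7%.

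The members thus had unlike sizes of difference within each cell state. Over the 10 genes, the fold changes (log2) of the GFP and SMARCB1 cells, whose libraries are separate, had a Pearson correlation of 0.783 and a Spearman correlation of 0.552. Without PSG4 the values over 9 genes were 0.58 and 0.383. The genes share their libraries and part of their sequence, so these are descriptions.

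**Figure D2:**
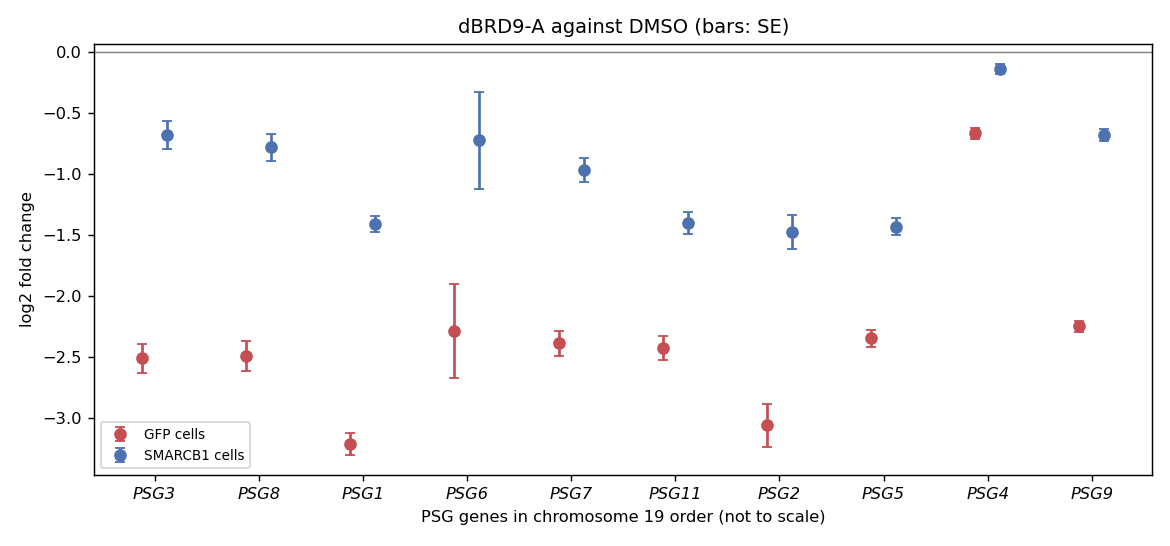
Log2 fold change with dBRD9-A against DMSO for each PSG gene in chromosomal order, in GFP cells and in SMARCB1 cells, with bars for the SE. PSG4 is nearest to 0 in both cell states, and each member lies lower in GFP cells than in SMARCB1 cells.

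The effect of SMARCB1 on the family was tested first in DMSO, with edgeR's quasi-likelihood test and Benjamini-Hochberg adjustment over all genes. The members did not move as a block: PSG9, PSG3, PSG6, PSG8, PSG5, PSG7 and PSG4 fell, PSG1 rose, and PSG2 and PSG11 did not pass the threshold. The 7 falls compare with 31.6% of genes tested that were lower, the single rise with 33.5% that were higher, and the 8 of either kind with 65%. Replicates did not overlap for 7 lower members and 1 higher, against 33.6% and 35.1% of genes. These 7 include PSG11, which did not pass, and leave out PSG6, whose replicates overlapped. The median log2 fold change of the 10 was -0.73, against -0.0047 over all genes tested. The count was the same, 7 lower and 1 higher, with libraries scaled to the spike-in RNAs, which moved the median of all genes by 0.17. The GFP DMSO libraries are also the control of the dBRD9-A comparison that chose the members, which can favour falls here. The lean towards falls is therefore no separate evidence.

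PSG9 had the largest fall, to 30.9% of its level in GFP cells, or -1.70 as a log2 fold change (SE 0.04, adjusted p 5.68e-16). PSG3 fell to 43.9%, by 1.19 on the log2 scale (SE 0.10, adjusted p 8.85e-09). PSG5 and PSG4, the neighbours of PSG9, fell to 59% and 78.6%, with log2 fold changes of -0.76 (SE 0.06, adjusted p 2.80e-09) and -0.35 (SE 0.04, adjusted p 1.22e-06). PSG8 and PSG7 had log2 fold changes of -0.80 (SE 0.10, adjusted p 1.43e-06) and -0.71 (SE 0.09, adjusted p 1.27e-06). The fall of PSG6, -1.07 (SE 0.33, adjusted p 0.0079), was no longer past the threshold when SMARCB1 DMSO replicate 3 was left out (-0.78, adjusted p 0.0633).

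PSG1 rose to 147% of its level in GFP cells, or 0.56 as a log2 fold change (SE 0.06, adjusted p 3.21e-07), higher in 3 of 3 libraries. PSG2 was at 0.02 (SE 0.12, adjusted p 0.922) and PSG11 at -0.16 (SE 0.08, adjusted p 0.0809), or 0.01 with spike-in scaling. Their shares of the family drew closer: PSG9 made up 37% ± 0.46 and PSG1 6.23% ± 0.372 of the summed CPM in GFP cells, against 18.9% ± 0.727 and 15.2% ± 0.237 in SMARCB1 cells (SD, n = 3).

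SMARCB1 and GFP cells were then compared with dBRD9-A present in both. This comparison equals the one in DMSO plus the difference in response to dBRD9-A, which was already known to be positive, so its direction is no separate evidence. PSG1, PSG2, PSG8, PSG11, PSG7, PSG3 and PSG4 rose, PSG9 fell, and PSG5 and PSG6 did not pass. The 7 rises compare with 33% of genes tested that were higher, the fall with 30.4% that were lower, and the 8 of either kind with 63.3%. Replicates did not overlap for 8 higher members and 1 lower, against 34.4% and 31.8% of genes. With spike-in scaling, which moved the median of all genes by -0.32, 5 rose and 1 fell: PSG3 had 0.33 (adjusted p 0.0786), and PSG4 and PSG5 changed sign to -0.15 (adjusted p 0.0572) and -0.16 (adjusted p 0.142).

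PSG1 was at 511% of its level in GFP cells, or 2.36 as a log2 fold change (SE 0.10, adjusted p 6.41e-13), and PSG2 at 312%, with 1.61 (SE 0.20, adjusted p 1.65e-06). PSG8, PSG11, PSG7 and PSG3 had log2 fold changes of 0.91, 0.87, 0.71 and 0.65, with adjusted p between 3.27e-06 and 0.000534. PSG4 had 0.18 (SE 0.05, adjusted p 0.00248) and PSG5 0.16 (SE 0.08, adjusted p 0.0823). PSG9 had -0.13 (SE 0.05, adjusted p 0.036), which did not hold on leaving out GFP dBRD9-A replicate 1 or 3 (adjusted p 0.0611 and 0.112) or SMARCB1 dBRD9-A replicate 2 or 3 (adjusted p 0.0544 and 0.141). With spike-in scaling PSG9 had -0.46 (adjusted p 3.36e-06).

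PSG3, PSG4, PSG7 and PSG8 fell with SMARCB1 in DMSO and rose with SMARCB1 in dBRD9-A. This pair of calls was met by 0.146% of the genes tested. It follows in part from the interaction, which was known when the family was chosen, so nothing is read from that share. Of these 4, PSG4 and PSG3 lost the second call under spike-in scaling.

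**Figure D3:**
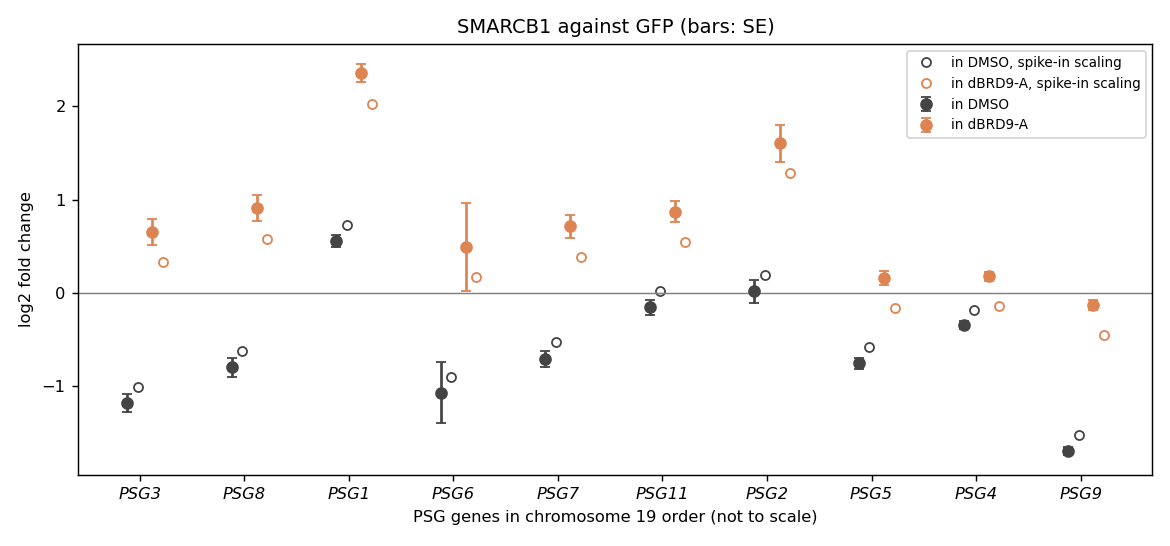
Log2 fold change of SMARCB1 against GFP for each PSG gene in chromosomal order, in DMSO and in dBRD9-A, with bars for the SE and open circles for spike-in scaling. In DMSO 7 members fell and PSG1 rose. In dBRD9-A 7 rose and PSG9 fell, and the open circles of PSG4 and PSG5 lie below 0 there.

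The make-up of the PSG transcripts differed between groups beyond the spread of replicates. PSG4 was 24.6% ± 0.443 of the summed CPM in GFP cells in DMSO and 51.8% ± 1.88 with dBRD9-A, and 32.1% ± 0.898 and 47.9% ± 0.256 in SMARCB1 cells (SD, n = 3). The share of PSG9 was 37% ± 0.46 and 26% ± 0.898 in GFP cells, and 18.9% ± 0.727 and 19.4% ± 0.37 in SMARCB1 cells (SD, n = 3). PSG1 went from 6.23% ± 0.372 to 2.25% ± 0.184 in GFP cells and from 15.2% ± 0.237 to 9.41% ± 0.531 in SMARCB1 cells (SD, n = 3). Shares depend on how reads were divided among members.

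**Figure D4:**
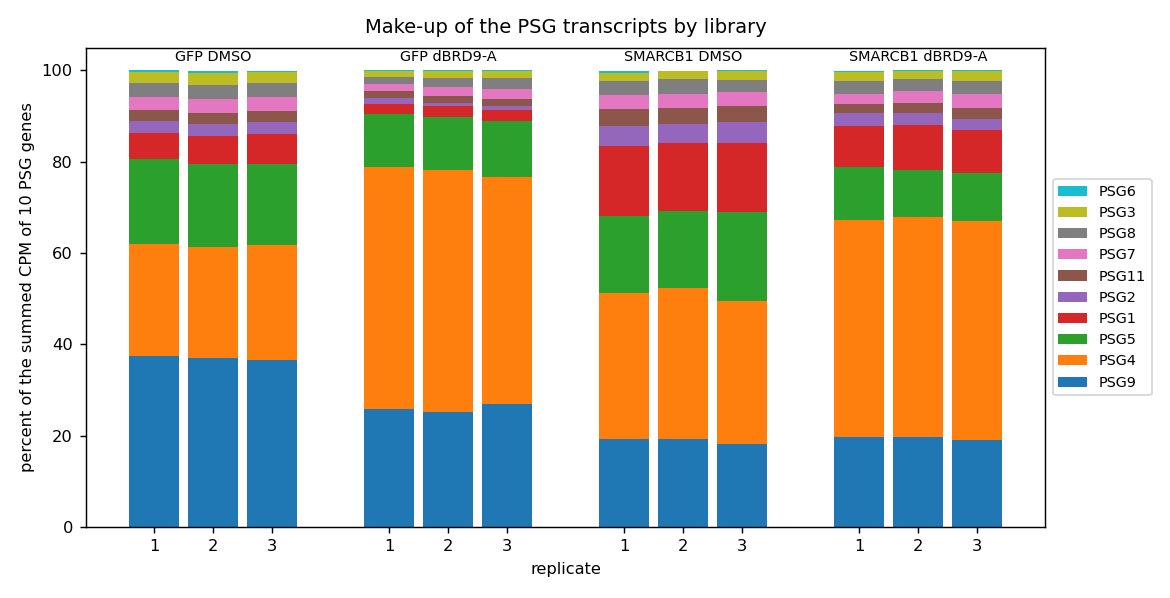
Percent of the summed CPM of the 10 PSG genes taken by each member, stacked for each of the 12 libraries. PSG4 takes 24.6% in GFP DMSO libraries and 51.8% in GFP dBRD9-A libraries, and replicates of a group look alike.

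Reads that fit several members could blur these differences. In GENCODE 29, between 77.8% (PSG9) and 93.5% (PSG4) of the 75-base stretches of a member's transcripts occurred in no other gene. The read length is not given in the sources used here, and 75 bases was chosen as an example. Between members, the widest sharing was of PSG8 with PSG1, at 7.97% of the stretches of PSG8. The deposited counts were whole numbers in every library for 9 of the 10 members. PSG9 alone had fractional counts, in 12 of 12 libraries. Of all genes with a count, 8.43% had a fractional value in some library. Whole counts are thus usual in these data and do not show how shared reads were divided.

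CEACAMP10 is a processed pseudogene that overlaps PSG9 on the same strand in GENCODE 29 and holds 11.8% of its stretches. The fractions of PSG9 and of CEACAMP10 added up to whole numbers (within 0.015) in 12 of 12 libraries. In GFP cells CEACAMP10 had 0.648 ± 0.0849 CPM without and 1.3 ± 0.354 CPM after dBRD9-A, and it was at 1.23 ± 0.106 and 1.72 ± 0.274 CPM in SMARCB1 cells (SD, n = 3). Added together, PSG9 and CEACAMP10 had log2 ratios of -2.17 with dBRD9-A in GFP cells, -0.62 in SMARCB1 cells and -1.65 for SMARCB1 in DMSO, close to those of PSG9. For SMARCB1 in dBRD9-A the sum had -0.10. PSG8 overlaps PSG10P, CEACAMP6 and, on the other strand, PSG8-AS1 in GENCODE 29, none of which exceeded 22 counts in a library. PSG2, PSG5 and PSG11 overlap AC004784.1 on the opposite strand, which was not analysed here. Whether strand was used when reads were counted is not given in the sources used here.

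The genes around the family were read from the RefSeq order. Of the 10 other genes between the outermost members, 7 were matched to the files and 2 were tested, PSG10P and CEACAMP10. PSG10P, the pseudogene of the family, had 1 to 22 counts per library and rose with SMARCB1 in DMSO (1.47, SE 0.37, adjusted p 0.00195). It fell with dBRD9-A in SMARCB1 cells (-1.74, SE 0.39, adjusted p 0.0279), with the same signs under spike-in scaling. In GFP cells PSG10P had -1.19 with dBRD9-A and did not pass (SE 0.56, adjusted p 0.179). Its interaction did not pass either (-0.54, adjusted p 0.82). Of the 20 genes on each side, 33 were matched and 20 tested. With dBRD9-A in GFP cells 3 of these 20 were higher and 1 lower, where 7.43% and 8.47% of all genes tested were, with a median log2 fold change of 0.04 (14 higher, 0 lower and a median of 0.40 under spike-in scaling, around a shift of 0.36 of all genes). CD177, a neutrophil surface protein gene near the family, had 122 ± 3.74 CPM in GFP DMSO libraries and 149 ± 6.18 CPM in GFP dBRD9-A libraries (SD, n = 3). It fell with SMARCB1 in DMSO by 1.37 on the log2 scale (SE 0.04, adjusted p 1.01e-15), with the same sign under spike-in scaling (-1.20).

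In SMARCB1 cells dBRD9-A left 0 of the 20 neighbours higher and 1 lower by edgeR's test, against 0.679% and 1.25% of all genes. The lower one was CD177, from 47.4 ± 0.85 to 42.5 ± 1.49 CPM (SD, n = 3). Under spike-in scaling 0 were higher and 2 lower. With SMARCB1 in DMSO 4 neighbours rose and 10 fell, where 33.5% of all genes tested were higher and 31.6% lower. Under spike-in scaling 5 neighbours rose and 8 fell. Among the 12 CEACAM genes, 1 was tested, CEACAM1, a cell adhesion receptor. It had 3 to 41 counts per library and rose with SMARCB1 in DMSO (3.13, SE 0.37, adjusted p 9.17e-07). At most 3 counts in every library were found for 9 of the 11 CEACAM genes in the files.

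Genes for reported binding partners of PSG proteins were tested for 10 of 12. All 10 rose with SMARCB1 in DMSO, also under spike-in scaling, with a median log2 fold change of 0.87 (33.5% of all genes tested were higher). ITGA5, the alpha subunit of the fibronectin receptor, rose from 81 ± 3.07 to 181 ± 3.08 CPM, and its partner ITGB1 from 773 ± 22.5 to 923 ± 16.8 CPM (SD, n = 3, adjusted p 5.39e-16 and 1.32e-07). LGALS1, which encodes galectin-1, rose from 173 ± 7.65 to 358 ± 10.7 CPM, and the heparan sulphate proteoglycan SDC2 from 181 ± 6.01 to 359 ± 7.68 CPM (SD, n = 3, adjusted p 5.02e-14 and 4.53e-15). ITGB3 had 0 to 4 counts in GFP libraries and 91 to 150 in SMARCB1 libraries. In GFP cells, dBRD9-A left 2 of the 10 higher and 3 lower, against 7.43% and 8.47% of all genes. Spike-in scaling turned this into 8 and 0, where 11310 of 15750 genes were called, around a shift of 0.36 of all genes. In SMARCB1 cells 0 were higher and 1 lower, against 0.679% and 1.25% of all genes (0 and 4 with spike-ins). For SMARCB1 against GFP with dBRD9-A in both, 10 were higher, where 33% of all genes were. Spike-in scaling made this 7 higher and 2 lower.

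Of 6 genes for factors reported on PSG promoters, 3 rose and 1 fell with SMARCB1 in DMSO, where 33.5% of all genes tested were higher and 31.6% lower. Under spike-in scaling 4 rose and 0 fell. KLF6 rose from 32.8 ± 1.79 to 68.7 ± 2.22 CPM (SD, n = 3, adjusted p 9.34e-14). With dBRD9-A in GFP cells 1 rose and 1 fell, against 7.43% and 8.47% of all genes. KLF4 had the fall, from 2.44 ± 0.0998 to 1.73 ± 0.0562 CPM (SD, n = 3, log2 fold change -0.50, adjusted p 0.0132), with a log2 fold change of -0.14 under spike-in scaling. SP1, the factor that binds GC boxes, had -0.08 (adjusted p 0.337) there, or 0.28 with spike-ins. Under spike-in scaling 5 of the 6 rose there and 0 fell, where 11310 of 15750 genes were called, around a shift of 0.36 of all genes.

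Among trophoblast transcription factors, 6 of 12 were tested. GATA2 fell with SMARCB1 in DMSO from 54.3 ± 1.81 to 31.2 ± 1.68 CPM, and DLX3 from 17.9 ± 0.815 to 3.46 ± 0.133 CPM (SD, n = 3, adjusted p 1.32e-10 and 7.86e-16), both with the same sign under spike-in scaling. In all 1 rose and 4 fell, against 33.5% and 31.6% of all genes. Under spike-in scaling 1 rose and 3 fell. With dBRD9-A in GFP cells 3 were higher and 1 lower, against 7.43% and 8.47% of all genes. GATA2 was among the former at 68.9 ± 3.87 CPM, and TFAP2A was the latter at 9.74 ± 1.33 CPM, from 12.5 ± 0.691 (SD, n = 3). With spike-ins 5 were higher and 0 lower, where 11310 of 15750 genes were called, around a shift of 0.36 of all genes. TFAP2A was at 0.01 on the log2 scale with spike-ins. Of the 6 placental marker genes tested, 5 rose and 0 fell with SMARCB1 in DMSO, where 33.5% of all genes tested were higher and 31.6% lower, EBI3 from 2.5 ± 0.198 to 6.92 ± 0.641 CPM (SD, n = 3, adjusted p 6.87e-10), and 1 was higher with dBRD9-A in GFP cells, where 7.43% of all genes were.

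The pattern of the family sum over the 12 libraries was compared with that of 12576 other genes with a mean of at least 50 counts. FMO1, a flavin-containing monooxygenase gene on chromosome 1, was most like it, with a Pearson correlation of 0.985 (Spearman 0.972) of log2(CPM + 1). It was at 137 ± 3.16 and 21.8 ± 0.411 CPM in GFP cells in DMSO and dBRD9-A, and at 84.4 ± 5.08 and 35 ± 2.98 CPM in SMARCB1 cells (SD, n = 3). AP3B2, an adaptor protein gene on chromosome 15, had 0.978 (Spearman 0.972), with 10.2 ± 0.772, 3.05 ± 0.441, 6.19 ± 0.252 and 4.5 ± 0.295 CPM in the same order of groups (SD, n = 3). FMO1 and AP3B2 kept the sign of all 4 differences under spike-in scaling, whereas the others of the 10 named changed at least 1 sign. The family sum itself changed sign for SMARCB1 in dBRD9-A, from 0.29 to -0.034 as a log2 ratio. LSAMP, ALPG, TNFSF9, CXorf38, MMRN2, SYNC, PRAC2 and FILNC1 followed, with Pearson correlations of 0.974 to 0.946, and none of the 10 named lies among the neighbours of the family. By Spearman correlation 2 of these 10 genes were among the 10 highest. The 12 libraries fall into 4 groups, so these correlations mainly describe the order of group means.

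Each member was also compared with the sum of the other 9 over the 12 libraries. PSG7, PSG3, PSG5 and PSG8 had Pearson correlations of 0.985, 0.983, 0.979 and 0.975 with the others. PSG4, PSG11, PSG6 and PSG2 had 0.956, 0.933, 0.892 and 0.879. PSG9 had 0.853 and PSG1 the lowest value, 0.699. PSG1 was the one member that rose with SMARCB1 in DMSO, and the same libraries enter its correlation.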

How the data were processed

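RNA was purified with an RNeasy kit and libraries were made with a stranded mRNA kit, per the labels' protocols. STAR, RSEM 1.3.1 and DESeq2, and the build GRCh37/hg19, are named in the submitters' processing notes without their roles. The deposited tables hold expected counts per gene, which were rounded here. Identifiers of 40 spike-in RNAs were kept out of library sizes. Genes passing filterByExpr (minimum count 10) were tested in R 4.3.3 with edgeR 4.0.16 (quasi-likelihood, TMM scaling, 12 libraries, 1 coefficient per group). The code was also run on simulated counts in which few genes were changed, in 1 group. That run cannot check the scaling where many genes differ, as they did with SMARCB1. The threshold was an adjusted p of 0.05. CPM use TMM-scaled library sizes. No test was made on sums or shares. Symbols matched 51996 of 57820 identifiers. Named genes were the 10 members, SMARCB1 and BRD9, the 10 genes most like the family sum, and, per gene list, up to 3 with the highest CPM and up to 3 with the largest change past the threshold. The other genes named (CGA, CYP19A1, HSD3B1, ERVW-1, ITGB3, KLF4, TFAP2A, EBI3 and the genes overlapping members) include choices made after their values were seen. Members and lists were chosen with earlier results of these data known. Alternatives were 2 other scalings, the DESeq2 1.42.0 Wald test, no filter, only the groups compared, a replicate block and leaving out each library. Detection floors reflect counting error alone, because PCR copies were not told apart by molecular identifiers.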

Additional observations from a re-analysis of the deposited data

Results flagged for a closer look

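The interaction term of the edgeR fit, known from earlier results when the family was chosen, was past the threshold for 9 of the 10 PSG genes. Of the genes tested 2.15% had a positive interaction past it, and nothing is read from that count. The interactions, as log2 fold change in SMARCB1 cells minus that in GFP cells, were 1.83 for PSG3, 1.80 for PSG1, 1.71 for PSG8, 1.59 for PSG2, 1.57 for PSG9, 1.42 for PSG7, 1.03 for PSG11, 0.92 for PSG5 and 0.53 for PSG4. With spike-in scaling PSG4 had 0.03 (adjusted p 0.773) and did not pass. PSG6, with 5 to 58 counts per library, had 1.56 (SE 0.58) and did not pass. These differences were known when the family was chosen, so they describe it and are not a separate finding. With 3 samples a group no search for outlying samples was made.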

How the results depend on the processing

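Member values were recomputed under the alternatives. For SMARCB1 in DMSO 175 kept their direction and their side of the threshold, 4 changed sign and 1 lost its call. For SMARCB1 in dBRD9-A 172 kept both, 2 changed sign, 5 lost their call and 1 gained it. For dBRD9-A, known when the family was chosen, 180 (GFP cells) and 178 (SMARCB1 cells) kept both, and 167 for the interaction, known likewise. Many of these runs left out a library of a group not compared, which could change little. Spike-in scaling moved the log2 ratio of the family sum from -0.73 to -0.56 for SMARCB1 in DMSO. For SMARCB1 in dBRD9-A the ratio went from 0.29 to -0.034. For dBRD9-A it went from -1.74 to -1.38 in GFP cells and from -0.72 to -0.85 in SMARCB1 cells. Their difference went from 1.02 to 0.53. This scaling shifts all genes of a library alike. How the spike-ins were added is not given in the labels, so which scaling is nearer to the RNA per cell cannot be told. Spike-in scaling also turned PSG11 in DMSO to 0.013, PSG5 in dBRD9-A to -0.16 and PSG4 in dBRD9-A to -0.15 for SMARCB1 against GFP. PSG2 in DMSO, at 0.02, was -0.0219 without GFP DMSO replicate 1, -0.0197 without SMARCB1 DMSO replicate 1 and -0.0064 without SMARCB1 DMSO replicate 3, and reached 0.0699 without GFP DMSO replicate 3. Leaving out a library gave sums of -0.75 to -0.70, 0.26 to 0.32, -1.75 to -1.71, -0.75 to -0.68 and 0.99 to 1.05 in the order above. No shared deviation was seen by replicate number: deviations of same-numbered libraries correlated at -0.056 to 0.061, and 3 of 12 libraries correlated best with their own number. The numbers that open the sample titles run replicate by replicate across the groups. These correlations cannot tell whether samples were handled in such sets. The replicate block left every count of members as it was, 8 for SMARCB1 in DMSO, 8 in dBRD9-A, 10 and 8 for dBRD9-A in GFP and SMARCB1 cells and 9 for the interaction. For the interaction, PSG4 did not pass with spike-in scaling (0.033, adjusted p 0.773), and PSG6 passed with no count filter (adjusted p 0.0427) or without SMARCB1 DMSO replicate 1 (adjusted p 0.0278). Over all genes, 304 were called for dBRD9-A in SMARCB1 cells and 652 with no count filter, 159 with only the groups compared and 873 with spike-in scaling, which moved the median of all genes by -0.14 there and by -0.49 for the interaction. With spike-ins 11310 genes were called for dBRD9-A in GFP cells (2504 without) and 11270 for the interaction (598 without). Counts of PSG6, 5 to 58 per library, limit its precision.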
